A study of Homo sapiens with 31 samples.

Results

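Human MCF10A cells that had been back in full medium with DMSO for 24 h were compared with the same line at the end of serum starvation. The comparison took the 2 libraries titled 24h DMSO (replicates 1 and 3) and the 3 libraries titled 0h (replicates 1, 2 and 3), 5 of the 31 RNA sequencing libraries in the series. MCF10A is a non-transformed line of human breast epithelium. Starvation lasted 2 or 3 days, in a medium with 0.3% bovine serum albumin that lacked serum, EGF and insulin. Release meant full growth medium holding 5% horse serum, 20 ng/mL EGF and 10 µg/mL insulin, together with 0.1% DMSO as vehicle or with palbociclib at 1 µM, which inhibits CDK4 and CDK6, the partners of cyclin D. The series follows the release over 3, 6, 9, 12, 15 and 24 h, with palbociclib beside DMSO from 9 h on. Hydrocortisone (0.5 µg/mL) and cholera toxin (100 ng/mL), which raises cyclic AMP, were present in the 24 h DMSO medium and in the starvation medium alike. No DMSO is recorded for the 0 h libraries, and the medium was fresh at release. Serum, growth factors, vehicle and medium change thus cannot be told apart from each other. The 24 h palbociclib libraries had the same medium, and they are set beside the 24 h DMSO libraries below.

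Quiescent cells are out of the cell cycle but can return to it. With no insulin or growth factor signal, FoxO transcription factors stay in the nucleus and turn on genes of fat and amino acid breakdown, autophagy and cell cycle arrest, while growth factor signalling through ERK, MYC and mTOR raises ribosome production, glycolysis and lipid synthesis. CDK4 and CDK6 with cyclin D phosphorylate the retinoblastoma protein, which frees E2F factors to turn on genes for DNA replication and mitosis. The values below describe which of these programmes differed at 24 h, outside the cell cycle genes as well as among them.

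Library totals were 14629105 and 19390645 gene counts for the 24 h DMSO libraries, against 14346261, 16631098 and 15501120 for the 0 h libraries. Levels are given as CPM, a gene's counts scaled to a fixed library total after adjustment by edgeR's TMM factor. A level is thus relative to the mRNA measured and says nothing of the amount of RNA per cell. In such bulk samples, fewer cells of one kind and less RNA per cell cannot be told apart. Log2 fold changes are 24 h DMSO over 0 h with their standard errors, and a gene was called higher or lower where edgeR's quasi-likelihood test gave a Benjamini-Hochberg adjusted p under 0.05. Whether replicates were grown as separate cultures is not stated, and the p-values therefore cover the spread among libraries alone, which may be technical. Counting ignored strand, and exons of some genes named below overlap those of another gene, for 40.5% of exon bases in DUSP6, 36.6% in TUBA1B, 38.6% in PDK2, 28.0% in DDIT3, 23.8% in SLC1A5, 23.3% in MALAT1, 22.0% in SQSTM1, 18.6% in FDPS, 17.9% in IDI1 and 17.9% in EIF4A2. Reads from the overlap cannot be assigned to either partner. Keratins, actins, tubulins, metallothioneins, HLA genes and CYP3A4 have near-identical relatives, and reads that map to several places were not counted, so their levels are uncertain to that extent.

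Of 15787 genes tested, 5800 (36.7%) were called higher and 6145 (38.9%) lower at 24 h than at 0 h. At 2-fold or more, 2596 genes (16.4%) were higher and 3472 genes (22%) were lower, and the median over all genes was −0.095. These shares are the background for every list below. A list of 288 tested cell cycle genes held 275 of the 2-fold rises, which left 2321 rises and 3471 falls of that size among other genes. With so short a list, most changed genes had to fall outside it. Being off the list does not place a gene outside the cell cycle. Of the 508 genes lower by 2-fold or more with palbociclib than with DMSO at 24 h, 264 were list members. By share of counts, the list went from 0.510% at 0 h to 3.06% at 24 h DMSO (means), the largest gain of the lists. Cell cycle genes took a larger part of the steepest rises, 117 of the 266 that reached 16-fold (44.0%). That list, like the others, was compiled with earlier results of these data known, so its direction is no independent evidence.

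**Figure D1:**
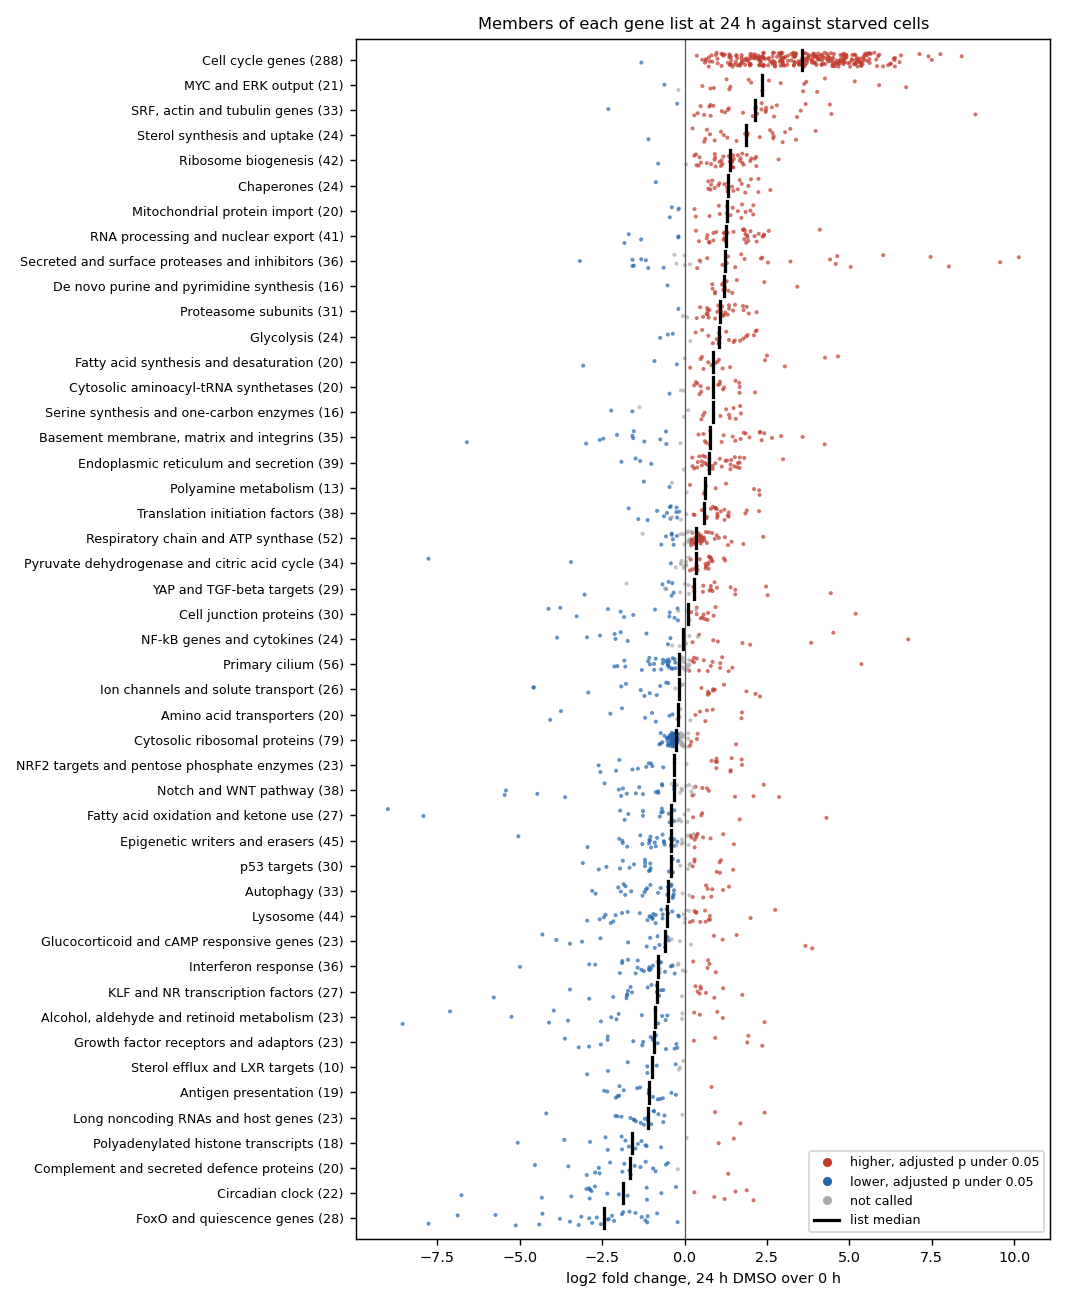
Each point is a gene of a list (number tested in brackets), placed by its log2 fold change at 24 h DMSO over 0 h; red points were called higher, blue points lower and grey points not called, and black bars are list medians. Of the lists drawn, the cell cycle list has the highest median (3.57) and the FoxO list the lowest (−2.43), with SRF, sterol, chaperone and proteasome lists to the right of 0 and clock, complement and antigen presentation lists to the left.

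Among the transcripts that gained most of the mRNA pool were those of cytoskeleton and chaperone proteins. ACTB, beta-actin (chromosome 7, 5527151 to 5563784, GRCh38), had 8751 and 8830 CPM in the 24 h DMSO libraries, against 781, 944 and 752 CPM in the 0 h libraries (log2 fold change 3.41 ± 0.09). Its groups did not overlap, which held for 11813 of the 11945 genes called. KRT81, a hair-type keratin, reached 3473 and 3555 CPM at 24 h DMSO, against 171, 189.8 and 159 CPM at 0 h (4.34 ± 0.11). S100A2, a calcium-binding protein of basal epithelium, had 4439 and 4600 CPM at 24 h DMSO and 471, 523.5 and 470.1 CPM at 0 h. Other large gains were those of HSPA8 and HSP90AA1, both cytosolic chaperones, ANXA2, FLNA, ACTG1 and the metallothionein MT2A.

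The transcripts that lost most of the mRNA pool included a metabolic enzyme, a keratin and an antioxidant enzyme. GLUL, glutamine synthetase (chromosome 1, 182381704 to 182392206), had 381 and 398 CPM in 24 h DMSO libraries, against 6352, 6155 and 6288 CPM in 0 h libraries (−4.01 ± 0.08, adjusted p = 8.3e-28). Per length of transcript, GLUL had 43.1 FPKM at 24 h DMSO and 694 FPKM at 0 h. KRT15, a keratin of basal progenitor cells, had 102 and 128 CPM at 24 h DMSO, against 4105, 3777 and 3954 CPM at 0 h (−5.09 ± 0.11). SOD2, the mitochondrial superoxide dismutase, had 150.5 and 157 CPM at 24 h DMSO, against 3125, 2996 and 2669 CPM at 0 h (−4.25 ± 0.12). In each of these 3 genes the lowest 0 h library was over 10 times the highest 24 h DMSO library. The nuclear RNA MALAT1 also lost much of its share, but its libraries spread widely: 1847 and 909 CPM at 24 h DMSO against 3960, 2219 and 5676 CPM at 0 h. Its log2 fold change was −1.52 ± 0.51 and passed the test with adjusted p = 0.0085, a call that was lost without 24h DMSO replicate 3 (−1.01).

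**Figure D2:**
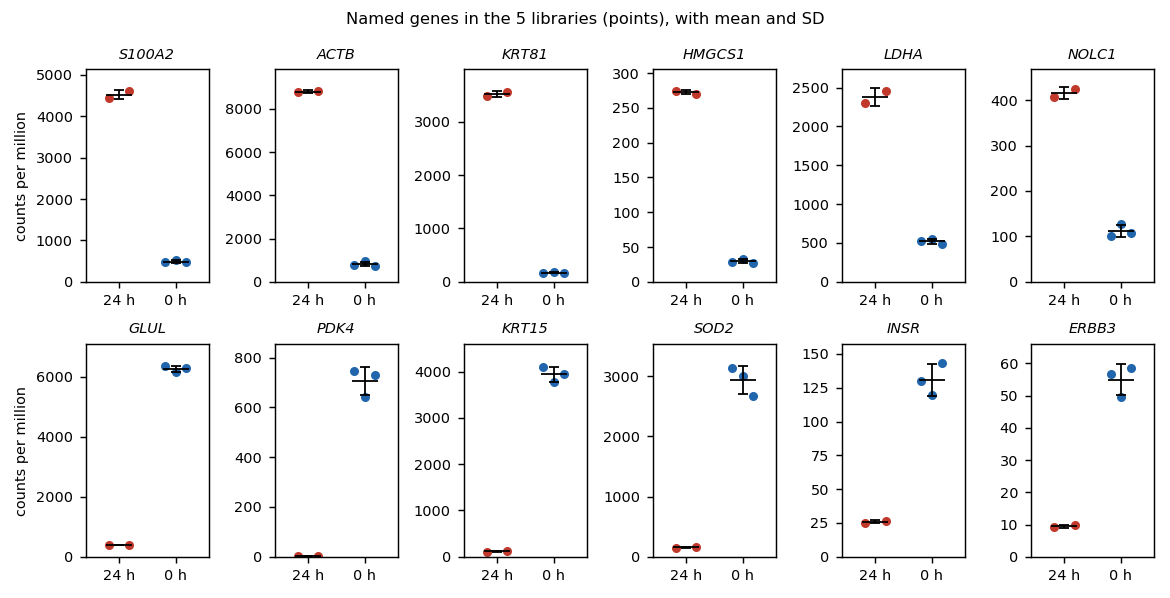
CPM of 12 genes in the 2 libraries of 24 h DMSO (left in each panel) and the 3 libraries of 0 h (right), with the mean and SD as bars; each axis starts at 0. In none of the panels do the groups overlap, as in 11813 of the 11945 genes called. The libraries of a group lie close together beside the distance between the groups. GLUL, for one, had 381 and 398 CPM at 24 h DMSO against 6155 to 6352 CPM at 0 h.

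Among genes outside the cell cycle list, several of the steepest rises were secreted factors, receptors and signalling genes. MMP10, a matrix metalloproteinase, had 206 counts over both 24 h DMSO libraries and 0 counts in all 3 libraries at 0 h, at least 102-fold higher when the 0 h group is set to 3 counts. CSF3, the granulocyte colony-stimulating factor, had 84.7 and 87.0 CPM at 24 h DMSO, against 0.589, 1.10 and 0.597 CPM at 0 h (6.79 ± 0.19). SERPINE2, an inhibitor of thrombin and related proteases, had 98.7 and 97.9 CPM at 24 h DMSO, against 1.44, 1.44 and 1.61 CPM at 0 h (6.03 ± 0.14). The same low starting level held for INSC, an adaptor in spindle orientation, with 53.6 and 61.1 CPM at 24 h DMSO and 0.720, 0.692 and 0.776 CPM at 0 h. COL6A3, a collagen VI chain, had 62.9 and 57.5 CPM at 24 h DMSO and 0.0654, 0.634 and 0.298 CPM at 0 h, a log2 fold change of 7.42 ± 0.25 that became 8.27 without 0h replicate 2.

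The deeper falls outside the cell cycle list included the following genes. CYP3A4, a drug- and steroid-oxidising cytochrome P450 (chromosome 7, 99756960 to 99784265), had 0 counts in both 24 h DMSO libraries and 669 counts at 0 h, with 12.9, 12.3 and 15.4 CPM. That made it at least 151-fold lower at 24 h when the 24 h DMSO group is set to 3 counts. PRODH, which starts proline breakdown, had 1.46 and 1.11 CPM at 24 h DMSO, against 165, 158 and 157 CPM at 0 h (−6.98 ± 0.13, adjusted p = 3e-28). FBXO32, the ubiquitin ligase subunit atrogin-1, had 3.82 and 3.81 CPM at 24 h DMSO, against 479, 401 and 470.5 CPM at 0 h (−6.88 ± 0.18). MAOA, a monoamine oxidase, had 14.6 and 16.02 CPM at 24 h DMSO, against 598, 604 and 553 CPM at 0 h (−5.25 ± 0.10). Groups did not overlap in these 4 genes, but that was a condition for naming the largest falls. It held for 11813 of the 11945 genes called.

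Genes known as FoxO targets or as marks of quiescence were lower as a group. All 28 genes of that list were called lower and 26 of them at 2-fold or more, with a median of −2.43, and their summed share of counts was 0.156% and 0.161% at 24 h DMSO against 1.03%, 0.882% and 1.05% at 0 h. The share differed by exact permutation test with p = 0.1, two-sided, which is the smallest value that 2 against 3 libraries allow and applies to every share below with p = 0.1. TXNIP, which restrains glucose uptake, had 523 and 544 CPM at 24 h DMSO, against 2733, 2233 and 2906 CPM at 0 h (−2.30 ± 0.14). BTG1, an antiproliferative protein, fell to 64.3 and 67.3 CPM at 24 h DMSO, against 606, 573.5 and 551 CPM at 0 h (−3.13 ± 0.08), and the repressor BCL6 fell further (−5.12 ± 0.11). TSC22D3, a glucocorticoid-induced leucine zipper protein, was lower by the same test (−4.31 ± 0.09) although hydrocortisone was in both media. CDKN1B, the CDK inhibitor p27, changed less, with 35.5 and 36.9 CPM at 24 h DMSO and 63.7, 66.3 and 63.4 CPM at 0 h (−0.83 ± 0.10).

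The letters of a FoxO site, GTAAACA on either strand, occurred between 250 bases before and 50 bases after the transcript start in 5 of the 26 FoxO list genes with a RefSeq promoter window (19.2%), in 2.35% of the 10498 tested genes with such a window and in 3.41% of all 27305 windows. Stretches from 3 of these promoters are shown with the matching letters in capitals, read along the gene's strand in GRCh38.p14: TXNIP at chr1:145996685-145996715 on the minus strand, BTG1 at chr12:92146037-92146067 on the minus strand and HBP1, a cell cycle repressor, at chr7:107168818-107168848 on the plus strand. A match is a run of letters and not a measured binding site. The list holds genes known as FoxO targets, so its share of matches is no independent evidence. The letters also occurred in 2 of 9 squamous differentiation windows (22.2%). Of all tested genes with the letters, 33.2% were higher and 44.5% lower, against 42.1% and 37.9% of those without them.
TXNIP: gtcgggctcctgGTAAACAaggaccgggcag
BTG1: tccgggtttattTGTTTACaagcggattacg
HBP1: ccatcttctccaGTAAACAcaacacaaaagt

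Receptors and adaptors that sense growth factors moved the other way from the outputs of growth factor signalling. Of 23 receptor and adaptor genes tested, 18 were lower and 5 higher, with a median of −0.94. INSR, the insulin receptor, had 25.3 and 26.7 CPM at 24 h DMSO, against 129.9, 119.5 and 143 CPM at 0 h (−2.33 ± 0.11), and its adaptor IRS2 had 69.2 and 65.4 CPM against 651, 534 and 681.5 CPM (−3.21 ± 0.13). ERBB3, which signals as a partner of other EGF receptor family members, was also lower (−2.54 ± 0.11), as was FGFR3 (−2.89 ± 0.12). EGFR itself, the receptor for the EGF that was added, had 794 and 753 CPM at 24 h DMSO and 1438, 1480 and 1536 CPM at 0 h (−0.94 ± 0.07). The ephrin receptor EPHA2 was higher, with 216 and 216 CPM at 24 h DMSO and 39.7, 42.6 and 44.2 CPM at 0 h (2.36 ± 0.08).

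Of 21 genes that report ERK and MYC activity, 19 were higher and 16 of those by 2-fold or more, with a median of 2.36. DUSP6, a phosphatase that switches off ERK, had 107 and 119 CPM at 24 h DMSO, against 2.16, 1.44 and 2.09 CPM at 0 h (5.90 ± 0.15). SPRY4, another feedback inhibitor of the pathway, had 116 and 105 CPM at 24 h DMSO and 4.38, 2.42 and 2.51 CPM at 0 h (5.16 ± 0.13). The AP-1 subunit FOSL1 (3.63 ± 0.09) and the ETS factor ETV4 (6.72 ± 0.19) were higher as well. MYC moved little beside them, with 470.4 and 463 CPM at 24 h DMSO and 382, 223 and 356 CPM at 0 h (0.54 ± 0.12, adjusted p = 0.00011). CCND1, cyclin D1, had 440.5 and 432 CPM at 24 h DMSO, against 49.5, 67.8 and 55.9 CPM at 0 h (2.92 ± 0.11).

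Most genes for building ribosomes were higher at 24 h, while the ribosomal protein transcripts themselves held a smaller share. Of 42 ribosome biogenesis genes, 40 were higher and 28 of them by 2-fold or more, with a median of 1.38. NOLC1, a nucleolar chaperone, had 406.5 and 425 CPM at 24 h DMSO, against 101, 127 and 108 CPM at 0 h (1.89 ± 0.08), and MRTO4, an assembly factor of the large subunit, had 108 and 107 CPM against 28.7, 35.6 and 28.5 CPM (1.79 ± 0.07). Among 79 cytosolic ribosomal proteins, 49 were lower and 5 higher, but none fell by 2-fold, and the median was −0.26. Together they took 4.14% of counts at 24 h DMSO and 5.39% at 0 h (means; exact permutation test, two-sided, p = 0.1). RPS27, a protein of the small subunit, had 312 and 332 CPM at 24 h DMSO, against 568, 561 and 513 CPM at 0 h (−0.77 ± 0.06).

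Translation initiation factors were split. Of 38 tested, 22 were higher and 13 lower, with 1.08% of counts at 24 h DMSO and 1.06% at 0 h (means; exact permutation test, two-sided, p = 0.7). EIF4G1, the scaffold of the cap-binding complex, had 1341 and 1315 CPM at 24 h DMSO, against 515, 528 and 527 CPM at 0 h (1.34 ± 0.06), and the cap-binding protein EIF4E had 100.4 and 109 CPM against 27.7, 31.7 and 25.4 CPM (1.89 ± 0.10). Other subunits of the same step went down. The helicase EIF4A2 had 189.9 and 209.7 CPM at 24 h DMSO, against 651, 665 and 623 CPM at 0 h (−1.69 ± 0.07), and its cofactor EIF4B had 366 and 380.5 CPM against 953, 1046 and 959 CPM (−1.40 ± 0.06).

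EIF4A2 and EIF4B differ from EIF4E and EIF4G1 in how their transcripts begin, though not every lower factor shares their start. Transcripts that open with an unbroken run of pyrimidines are known as TOP mRNAs, whose translation depends on mTOR. Stretches from 10 bases before the RefSeq transcript start to 20 bases into the transcript are shown for 3 genes that were lower and carry such a start and for 2 that were higher and do not. Capitals mark the pyrimidine run that begins at the first transcribed base, the 11th letter, and sequences are in GRCh38.p14. RPS27 lies at chr1:153990752-153990781 (plus strand), EIF4A2 at chr3:186783567-186783596 (plus), EIF4B at chr12:53006446-53006475 (plus), EIF4E at chr4:98929114-98929143 (minus) and EIF4G1 at chr3:184314596-184314625 (plus).
RPS27: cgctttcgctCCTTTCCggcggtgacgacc
EIF4A2: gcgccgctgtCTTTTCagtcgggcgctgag
EIF4B: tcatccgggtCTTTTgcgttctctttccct
EIF4E: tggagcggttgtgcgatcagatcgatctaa
EIF4G1: gcggggagccggaaatggttgtggactacg

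A pyrimidine start, here C or T at each of the first 5 transcribed bases, was found in 43 of 63 ribosomal proteins with a promoter window (68.3%), in 5.39% of tested genes and in 5.22% of all windows. Among initiation factors with a window it was found in 5 of the 8 lower ones: EIF2S3, EIF3F, EIF3M, EIF4A2 and EIF4B. It was found in 1 of the 20 higher ones with a window (EIF3K). Of all 38 factors tested, 13 were lower and 22 higher, so the start of some is not known. EIF1 (−1.12), EIF2B4 (−0.43) and EIF4EBP2 (−0.44) were lower without a pyrimidine start. Of ribosome biogenesis genes with a window, 5 of 35 (14.3%) had a pyrimidine start, and of proteasome genes 0 of 26. Outside the ribosomal protein list, 523 tested genes had this start, of which 163 (31.2%) were higher and 263 (50.3%) lower, with a median of −0.27, against 42.7% higher and 37.3% lower among genes without it. The 5-base criterion was chosen after these values had been seen, the first RefSeq start listed for a gene was used, and the start used in these cells was not measured. Ribosome biogenesis promoters carried another word often: CACGTG, the E-box to which MYC family proteins can bind, was present in 14 of 35 windows (40%) against 9.89% of tested genes and 7.43% of all windows. It was also present in 33.3% of lysosome windows and 27.8% of circadian clock windows, lists in which lower calls outnumbered higher ones. Over all tested genes, 43% of those with the E-box were higher and 37.5% lower, against 41.8% and 38.1% of those without it. Being a palindrome, it reads the same on both strands.

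**Figure D3:**
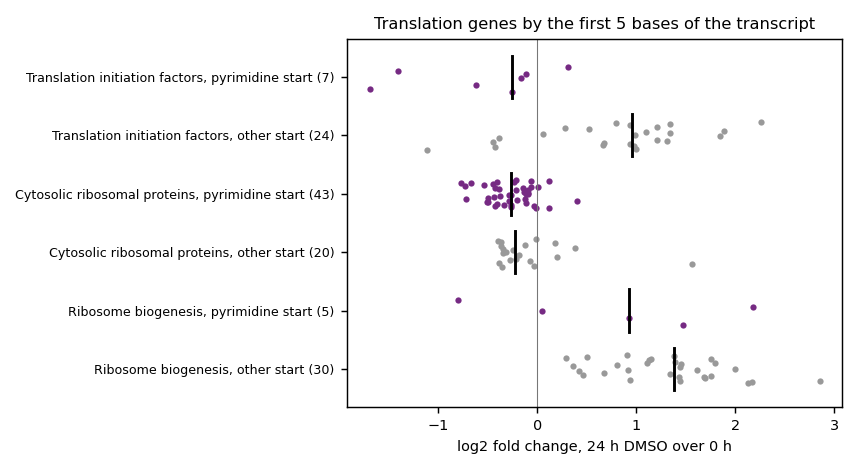
Each point is a tested gene of the translation lists with a promoter window, placed by its log2 fold change at 24 h DMSO over 0 h and split by whether its first 5 transcribed bases were all C or T; black bars are medians and brackets give the number of genes. Initiation factors with a pyrimidine start include EIF4A2 at −1.69, EIF4B at −1.40 and EIF3K at 0.31. Those with another start include EIF4E at 1.89 and EIF1 at −1.12. The ribosomal protein medians lie close together in both rows.

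Protein folding and turnover genes were higher. Of 24 chaperone genes, 23 were higher and 17 by 2-fold or more (median 1.31), and their share of counts was 1.51% at 24 h DMSO and 0.577% at 0 h. HSP90AA1 had 2730 and 2584 CPM at 24 h DMSO, against 439, 464 and 408 CPM at 0 h (2.6 ± 0.07), and STIP1, which couples HSP70 to HSP90, had 284 and 307 CPM against 61.6, 67.0 and 58.3 CPM (2.24 ± 0.08). Of 31 proteasome subunits, 28 were higher and 17 by 2-fold or more (median 1.07). PSMD2, a subunit of the regulatory particle, had 613 and 608.5 CPM at 24 h DMSO, against 136, 145 and 122 CPM at 0 h (2.19 ± 0.07). Of 20 cytosolic tRNA synthetases, 17 were higher, led by WARS for tryptophan (2.14 ± 0.08) and VARS for valine (1.67 ± 0.06). In the endoplasmic reticulum list, 34 of 39 genes were higher, among them the disulfide isomerase PDIA4 (1.67 ± 0.07), and 4 were lower: the stress-induced factor ATF4 (−1.34 ± 0.08), DNAJB9 (−1.48 ± 0.12), HERPUD1 (−1.01 ± 0.08) and DDIT3 (−1.91 ± 0.19).

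Most glycolysis genes were higher, and 2 of the kinases that keep pyruvate out of the citric acid cycle were lower. Of 24 glycolysis genes, 20 were higher and 15 by 2-fold or more (median 1.06), and their share was 1.59% of counts at 24 h DMSO and 0.694% at 0 h. LDHA, lactate dehydrogenase A, had 2299 and 2461 CPM at 24 h DMSO, against 523, 551.5 and 489 CPM at 0 h (2.19 ± 0.07), PGAM1, which moves the phosphate of phosphoglycerate, rose by 2.16 ± 0.08, and SLC16A3, the lactate exporter MCT4, rose by 1.78 ± 0.07. Of 34 genes of pyruvate dehydrogenase and the citric acid cycle, 21 were higher with a small median of 0.35. PDK4 had 3.19 and 3.28 CPM at 24 h DMSO, against 748, 643.5 and 729 CPM at 0 h (−7.77 ± 0.24), and PDK2 had 0.902 and 1.59 CPM against 13.7, 15.7 and 12.6 CPM (−3.44 ± 0.20). Both are pyruvate dehydrogenase kinases, which inactivate the complex. The 52 nuclear genes of the respiratory chain and ATP synthase showed 35 rises, 6 of them by 2-fold or more (median 0.35), led by CYCS, cytochrome c, with 279.9 and 319.9 CPM at 24 h DMSO and 57.6, 64.0 and 50.4 CPM at 0 h (2.39 ± 0.12). Mitochondrial protein import moved further, with 16 of 20 genes higher, 13 by 2-fold or more, and a median of 1.29.

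Sterol synthesis genes were higher together. Of 24 tested genes, 23 were higher, 17 by 2-fold or more, with a median of 1.87. HMGCS1, which makes HMG-CoA for the pathway, had 275 and 270.2 CPM at 24 h DMSO, against 28.6, 32.7 and 26.9 CPM at 0 h (3.21 ± 0.10), and IDI1 and FDPS, which make the isoprenoid precursors, rose by 3.38 ± 0.09 and 3.05 ± 0.07. INSIG1, the sterol-sensing inhibitor of the SREBP pathway and itself a target of it, had 152 and 135 CPM at 24 h DMSO, against 9.03, 10.8 and 7.40 CPM at 0 h (3.98 ± 0.12). Sterol export went the other way: of 10 efflux and LXR target genes, 7 were lower and 0 were higher, with the transporter ABCG1 at 3.26 and 3.44 CPM at 24 h DMSO and 15.1, 17.8 and 17.6 CPM at 0 h (−2.32 ± 0.21).

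The CCAAT box, the word CCAAT searched on both strands, was present in 15 of the 18 sterol genes with a window (83.3%), in 36.4% of tested genes with one, in 146 of 232 cell cycle genes (62.9%), in 24 of 36 endoplasmic reticulum and secretion genes (66.7%) and in 8 of 12 serine and one-carbon genes (66.7%). Each of these counts covers only genes with a window. The word was also present in 9 of 15 antigen presentation genes (60%) and in 14 of 24 p53 target genes (58.3%) with a window. Lower calls outnumbered higher ones in these lists. Of all tested genes with the word, 46.2% were higher and 35.6% lower, against 39.4% and 39.5% of those without it. A sterol regulatory element, searched as TCAC, any base and CCAC on both strands, was found in 1 of the same 18 sterol windows (5.56%) and in 1.07% of tested genes. The first match of 3 sterol genes is shown in capitals, where ATTGG is the same word on the opposite strand: INSIG1 at chr7:155297696-155297724 (plus strand), SC5D, a sterol desaturase, at chr11:121292703-121292731 (plus) and LSS, lanosterol synthase, at chr21:46228908-46228936 (minus), in GRCh38.p14. None of the words searched contains another.
INSIG1: cgccggcctcccATTGGttgcggccgcct
SC5D: cgccggtcgctgATTGGctggccgctcca
LSS: cgcggcgctctgATTGGttgcgtgggcgt

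Fatty acid synthesis and desaturation followed sterols in part, with 16 of 20 genes higher and a median of 0.87. The desaturases FADS2 (156 and 144 CPM at 24 h DMSO, against 7.20, 8.02 and 8.12 CPM at 0 h) and FADS1 rose by 4.26 ± 0.10 and 3.04 ± 0.07, and the elongase ELOVL6 by 2.50 ± 0.06. ACSL1, an acyl-CoA synthetase, stood apart with 129 and 131 CPM at 24 h DMSO and 1105, 1139 and 1041 CPM at 0 h (−3.07 ± 0.07). Among 27 genes of fatty acid oxidation and ketone use, 16 were lower and 5 higher. HADHB, a subunit of the mitochondrial trifunctional enzyme, had 120 and 119 CPM at 24 h DMSO, against 407, 398 and 364 CPM at 0 h (−1.70 ± 0.06), and the fat-burning regulator PPARA fell by 1.95 on the log2 scale.

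Nucleotide and polyamine synthesis were higher. Of 16 genes of de novo purine and pyrimidine synthesis, 15 were higher and 11 by 2-fold or more (median 1.2). CTPS1, which makes CTP, had 147 and 149.7 CPM at 24 h DMSO, against 13.7, 15.6 and 12.2 CPM at 0 h (3.42 ± 0.08), and PFAS, of purine synthesis, rose by 2.42 ± 0.10. Of 16 serine and one-carbon enzymes, 11 were higher, among them PSAT1 of serine synthesis (1.71 ± 0.10) and MTHFD1 of the folate cycle (1.37 ± 0.07). ODC1, the entry enzyme of polyamine synthesis, had 180.3 and 176 CPM at 24 h DMSO, against 37.7, 42.6 and 31.0 CPM at 0 h (2.26 ± 0.08), and AMD1, which supplies its aminopropyl donor, rose by 2.28 ± 0.06, while SAT1, which breaks polyamines down, fell by 0.46 on the log2 scale.

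Redox and detoxifying enzymes were mixed. Of 23 NRF2 target and pentose phosphate genes, 10 were higher and 11 lower. NQO1, a quinone reductase, had 145 and 130.4 CPM at 24 h DMSO and 55.1, 56.5 and 45.8 CPM at 0 h (1.39 ± 0.08), and thioredoxin, TXN, rose by 1.43 ± 0.09. FTL, the light chain of the iron store ferritin, had 128 and 126 CPM at 24 h DMSO, against 546, 575 and 486 CPM at 0 h (−2.08 ± 0.08). Of 23 tested genes of alcohol, aldehyde and retinoid metabolism, 16 were lower and 5 higher, with ALDH3A1 at 4.86 and 5.66 CPM at 24 h DMSO and 98.1, 91.9 and 85.1 CPM at 0 h (−4.11 ± 0.12). Amino acid transporters did not move together, with 7 higher and 9 lower of 20. The cystine carrier SLC7A11 rose by 1.74 ± 0.11, and the glutamine carrier SLC1A5 fell by 0.99.

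Recycling and immune display genes held a larger share of mRNA in starved cells. Of 44 lysosomal genes, 26 were lower and 13 higher, with a summed share of 0.431% at 24 h DMSO and 0.770% at 0 h (means; exact permutation test, two-sided, p = 0.1). The ganglioside activator GM2A had 127 and 117.5 CPM at 24 h DMSO, against 660.0, 632 and 634 CPM at 0 h (−2.40 ± 0.08), and the protease CTSF fell by 2.95, but the protease CTSC rose, with 447 and 468 CPM at 24 h DMSO and 71.1, 70.4 and 62.7 CPM at 0 h (2.75 ± 0.07). Of 33 autophagy genes, 23 were lower and 8 higher. ULK1, the kinase that starts autophagy, had 22.0 and 20.6 CPM at 24 h DMSO, against 145, 127 and 143 CPM at 0 h (−2.70 ± 0.10), and GABARAPL1 (−2.80 ± 0.09) and the receptor SQSTM1 (−1.93 ± 0.06) were lower too.

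Of 19 antigen presentation genes, 18 were lower and 12 by 2-fold or more, with a median of −1.08. HLA-E had 130.4 and 139.6 CPM at 24 h DMSO, against 675, 736 and 640 CPM at 0 h (−2.34 ± 0.08), and the peptide pump subunit TAP1 had 27.3 and 24.0 CPM against 106, 106.5 and 91.4 CPM (−1.98 ± 0.10). Interferon response genes were lower in 23 of 36 cases and higher in 5, with GBP2, a guanylate-binding protein, at 4.16 and 4.92 CPM at 24 h DMSO and 147.5, 149 and 141 CPM at 0 h (−4.99 ± 0.12). Complement and secreted defence genes were lower in 18 of 20 cases (median −1.66). C3, the central complement component, had 788 and 801 CPM at 24 h DMSO, against 3053, 3115 and 2635 CPM at 0 h (−1.88 ± 0.09). The exception among them was CD59, which protects cells from complement, with 794 and 821 CPM at 24 h DMSO and 326, 320.4 and 321 CPM at 0 h (1.32 ± 0.06). NF-kB genes and cytokines were split, 9 higher and 10 lower of 24: the chemokine CXCL8 had 31.8 and 37.9 CPM at 24 h DMSO and 1.77, 1.27 and 1.55 CPM at 0 h (4.52 ± 0.17), whereas the pathway inhibitor NFKBIA fell by 2.09 and the apoptosis inhibitor BIRC3 by 2.96.

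**Figure D4:**
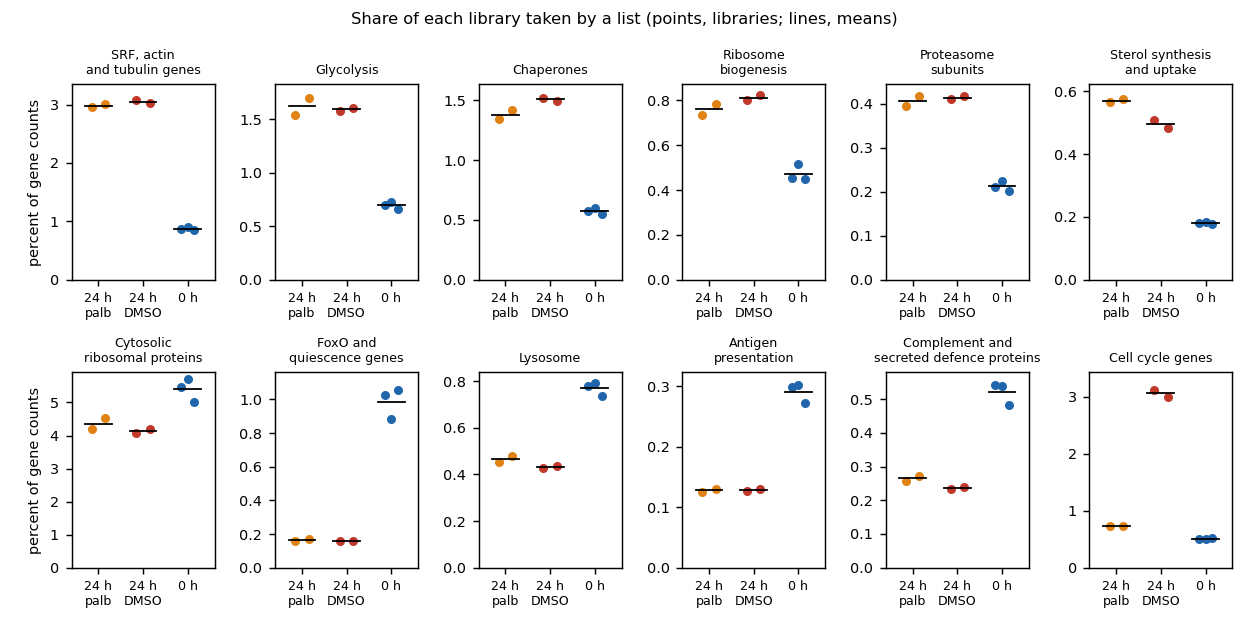
Percent of all gene counts held by each of 12 lists in the libraries of 24 h palbociclib (left), 24 h DMSO (middle) and 0 h (right); points are libraries, lines are means and each axis starts at 0. The cell cycle list has 3.06% at 24 h DMSO, 0.738% and 0.727% with palbociclib and 0.510% at 0 h, whereas in the other panels the palbociclib libraries lie nearer to 24 h DMSO than to 0 h.

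The cytoskeleton list rose almost throughout. Of 33 SRF target, actin and tubulin genes, 31 were higher and 23 by 2-fold or more (median 2.15), and they took 3.05% ± 0.037 of counts at 24 h DMSO (SD, n = 2) and 0.876% ± 0.030 at 0 h (SD, n = 3). TUBA1B, an alpha-tubulin, had 380.2 and 356 CPM at 24 h DMSO, against 15.96, 16.9 and 17.4 CPM at 0 h (4.46 ± 0.07), and TAGLN, which binds actin, had 108 and 116 CPM against 5.04, 6.11 and 4.66 CPM (4.41 ± 0.10). KANK2, a focal adhesion protein, was an exception, with 48.5 and 45.5 CPM at 24 h DMSO and 243, 224 and 233 CPM at 0 h (−2.31 ± 0.06).

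Laminin chains of the basement membrane moved in both directions. Among 35 matrix and integrin genes, 22 were higher and 12 lower. LAMB3 (2706 and 2626 CPM at 24 h DMSO, against 510.4, 561 and 508 CPM at 0 h) and LAMA3, the beta and alpha chains of laminin 332, rose by 2.34 and 1.8 on the log2 scale. LAMB1 had 412 and 393 CPM at 24 h DMSO, against 3150.0, 3264 and 3151 CPM at 0 h (−2.99 ± 0.10), LAMB2 had 115 and 108 CPM against 465, 469.5 and 448 CPM (−2.05 ± 0.07), LAMA5 fell by 1.56 and LAMC1 by 0.56. Per transcript length, LAMB1 (49.4 FPKM at 24 h DMSO, 391.7 FPKM at 0 h) stood above LAMB3 (561 FPKM at 24 h DMSO, 111 FPKM at 0 h) in starved cells, and below it in proliferating cells. The laminin linker NID1 fell by 6.6 and the collagen IV chains COL4A1 and COL4A2 rose by 2.28 and 2.65. ITGA6, an integrin chain that binds laminin 332, had 1865 and 1895 CPM at 24 h DMSO and 466.5, 506 and 466 CPM at 0 h (1.97 ± 0.06). The integrin chain ITGB4 went the other way, with 1747 and 1824 CPM at 24 h DMSO and 2946, 2968 and 3003 CPM at 0 h.

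Secreted proteases and their inhibitors were higher in 22 of 36 cases and lower in 8, 19 of the rises reaching 2-fold. F3, tissue factor, had 694 and 776 CPM at 24 h DMSO, against 21.8, 22.5 and 22.6 CPM at 0 h (5.04 ± 0.08, adjusted p = 7e-30). The tissue inhibitors TIMP2 and TIMP3 were lower (−1.10 ± 0.07 and −1.31 ± 0.07). Of 29 YAP and TGF-beta target genes, 16 were higher and 7 lower, with INHBA, an activin chain, at 21.5 and 24.3 CPM at 24 h DMSO and 0.981, 1.04 and 1.13 CPM at 0 h (4.44 ± 0.20).

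Cell junction genes were split, 12 higher and 13 lower of 30 (a split whose median, 0.10, changed sign with another scaling). The desmosomal linker DSP had 1025 and 997 CPM at 24 h DMSO, against 3514, 3440.0 and 3871 CPM at 0 h (−1.84 ± 0.08), and the desmosomal cadherins DSG3 and DSC3 fell by 1.94 and 1.55. CLDN1, a tight junction claudin, had 35.5 and 41.5 CPM at 24 h DMSO, against 678.5, 704 and 639 CPM at 0 h (−4.13 ± 0.09). GJB2, connexin 26 of gap junctions, had 65.5 and 72.3 CPM at 24 h DMSO and 1.24, 2.71 and 1.61 CPM at 0 h (5.19 ± 0.15). Channels and carriers were split as well, 11 higher and 12 lower of 26: SCNN1B, a subunit of the epithelial sodium channel (−4.58 ± 0.11), and the water channel AQP3 (−4.58 ± 0.14) were lower, while the sulfate carrier SLC26A2 was higher (1.88 ± 0.07).

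The markers of the labelled cell type were present in all 5 libraries, but at other ratios. Of 15 basal epithelial genes, 8 were higher and 7 lower at 24 h. KRT5, the main basal keratin, had 2480.0 and 2655 CPM at 24 h DMSO and 3615, 3671 and 3406 CPM at 0 h (−0.47 ± 0.07), and its usual partner KRT14 had 530.5 and 606 CPM against 43.0, 37.7 and 39.6 CPM (3.83 ± 0.10). TP63, the basal transcription factor, had 79.0 and 79.4 CPM at 24 h DMSO and 162, 134 and 166 CPM at 0 h (−0.96 ± 0.11). Markers of other cell types moved too. Of 9 luminal genes tested, 4 were higher and 4 lower, with PGR and ELF5 at 0 counts in all 5 libraries, and of 12 mesenchymal genes tested, 6 were higher and 5 lower, with COL1A2, COL3A1 and LUM at 0 counts. Of 12 blood and endothelial genes, 3 were tested and all 3 were lower: KDR with 2.08 and 1.64 CPM at 24 h DMSO and 88.8, 85.2 and 93.0 CPM at 0 h, CD14 (−2.02 ± 0.17) and PECAM1 (−2.69 ± 0.30). The summed share of these 12 genes was 0.00102% to 0.00111% at 24 h DMSO and 0.0128% to 0.0138% at 0 h, and CD3E and HBB were at 0 counts. The part of other cell types in the results was not tested.

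Circadian clock genes moved in both directions. Of 22 genes, 16 were lower and 6 higher. The activators ARNTL (52.9 and 58.5 CPM at 24 h DMSO, against 14.1, 13.5 and 11.6 CPM at 0 h) and CLOCK rose by 2.09 ± 0.10 and 1.22 ± 0.07, and the repressor CRY1 rose by 1.89 ± 0.13. NR1D1 and NR1D2, the REV-ERB receptors that repress ARNTL, fell by 2.82 and 3.43. The output factors DBP and TEF fell by 4.33 and 2.72. Each group is a single time point, so neither phase nor period can be read from these values.

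Of 23 genes that answer glucocorticoids or cyclic AMP, 14 were lower and 5 higher, although both agents were in both media. KLF9, a glucocorticoid-induced zinc finger factor, had 19.4 and 19.8 CPM at 24 h DMSO, against 249, 175 and 230.5 CPM at 0 h (−3.47 ± 0.19), and ZBTB16 fell by 3.89. MT2A, also induced by metals, had 2623 and 2365 CPM at 24 h DMSO, against 189, 231 and 168.5 CPM at 0 h (3.67 ± 0.15), and ANGPTL4, an inhibitor of lipoprotein lipase, rose by 3.87 ± 0.08. In the Notch and WNT list, 19 of 38 genes were lower and 9 higher, with NOTCH1 at 156 and 125 CPM at 24 h DMSO and 773, 676 and 814 CPM at 0 h (−2.43 ± 0.11) and the WNT antagonist SFRP1 at 473 and 461 CPM against 116, 109.9 and 102.5 CPM (2.09 ± 0.07). Of 30 p53 target genes, 18 were lower and 8 higher, with TP53INP1 at −3.08 ± 0.16 and TIGAR, which slows glycolysis, at 1.48 ± 0.10.

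Chromatin genes were more often lower. Of 45 epigenetic writers and erasers, 27 were lower and 11 higher. HDAC5, a deacetylase of the signal-responsive class, had 5.48 and 5.61 CPM at 24 h DMSO, against 183, 181 and 184 CPM at 0 h (−5.04 ± 0.09), and HDAC9 of the same class fell by 2.94, while HDAC2 rose by 1.17. The DNA methyltransferases moved apart, DNMT3A with −1.98 ± 0.12 and DNMT3B with 1.5 ± 0.22. Of 18 histone transcripts seen in this polyA-selected RNA, 15 were lower, 14 of them by 2-fold or more. HIST3H2A had 3.54 and 2.38 CPM at 24 h DMSO, against 103, 99.9 and 87.2 CPM at 0 h (−5.06 ± 0.17), and the linker histone H1F0 fell by 2.33. Replication-dependent histone mRNAs lack a polyA tail and are mostly missed by this selection.

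RNA processing and nuclear export genes were higher in 36 of 41 cases (median 1.26), with KPNA2, an import adaptor, at 540 and 518 CPM at 24 h DMSO and 28.0, 32.4 and 31.7 CPM at 0 h (4.11 ± 0.08), and the pore proteins NUP93 and NUP107 up by 2.40 and 2.25. The 5 lower ones included the splicing factor SRSF5 (−1.32 ± 0.08) and the splicing kinase CLK4 (−1.69 ± 0.13). Of 23 long noncoding RNAs and snoRNA host genes, 19 were lower and 3 higher. GAS5 had 165 and 172 CPM at 24 h DMSO, against 445, 531.5 and 426 CPM at 0 h (−1.47 ± 0.07), and MIR205HG had 309.6 and 299.7 CPM against 1119, 1188 and 1136 CPM (−1.91 ± 0.09). By biotype, 215 lincRNAs had a median of −0.98 and 285 antisense genes one of −0.91, against 0.036 for 12726 protein coding genes. An antisense gene's reads cannot be told from those of its partner here.

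Libraries of cells held 24 h in the same medium with palbociclib were set beside the 24 h DMSO libraries to see which of these lists differed when cell cycle entry was blocked. This comparison shares its 24 h DMSO libraries with the one against 0 h. With palbociclib, 910 genes (5.76%) were higher and 1937 genes (12.3%) lower than with DMSO, of which 90 (0.57%) and 508 (3.22%) changed by 2-fold or more. The count of higher genes rested on few libraries: it was 479 without 24h DMSO replicate 1, 483 without 24h DMSO replicate 3, 549 without 24h palbociclib replicate 1 and 664 without 24h palbociclib replicate 3. At 2-fold or more it was 77, 51, 30 and 217 in the same order. With palbociclib, 287 of the 288 cell cycle genes were lower (median −2.71), and MKI67, a proliferation marker, changed by −6.81 on the log2 scale.

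Other lists differed in how many genes were called with palbociclib, beside 5.76% higher and 12.3% lower over all genes. None of the 24 glycolysis, 79 ribosomal protein or 52 respiratory chain genes was called, 0 higher and 0 lower in each, and the ribosome biogenesis list had 0 higher and 3 lower of 42. The FoxO list had a median of 0.02, with 5 of 28 genes higher, a larger share than over all genes, and 1 lower. Sterol synthesis likewise had 5 of 24 genes higher and 0 lower (median 0.14), with HMGCS1 at 366 and 373 CPM with palbociclib and 275 and 270.2 CPM with DMSO (0.44, adjusted p = 0.0012). Lists with many lower calls included RNA processing and export, with 29 of 41 lower (median −0.34), serine and one-carbon enzymes, with 8 of 16 lower and 2 higher (−0.32), and purine and pyrimidine synthesis, with 7 of 16 lower and 0 higher (−0.22). TUBA1B had 218 and 224 CPM with palbociclib and 380.2 and 356 CPM with DMSO (−0.74). A gene that was not called may still differ by less than these 2 libraries a group could show.

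The earlier DMSO time points, which share the 0 h libraries with the 24 h comparison, place the lists in time. Medians against 0 h at 3, 6, 9, 12, 15 and 24 h were −1.02, −2.55, −2.67, −2.66, −2.76 and −2.43 for FoxO genes, and 0.09, 0.13, 0.31, 0.74, 1.41 and 1.87 for sterol synthesis. The FoxO list was thus at its later level by 6 h, and the sterol list had most of its rise after 9 h. GLUL averaged 3431 CPM at 3 h, 446 CPM at 6 h, 210.2 CPM at 9 h, 198 CPM at 12 h, 221.5 CPM at 15 h and 389 CPM at 24 h. F3 peaked early, with a mean of 2615 CPM at 3 h, 2051 CPM at 6 h and 1371 CPM at 15 h and 735 CPM at 24 h. Antigen presentation declined slowly, with medians of −0.15, −0.36, −0.66, −0.72, −0.85 and −1.08, and proteasome genes rose slowly, with medians of 0.26, 0.55, 0.70, 0.81, 0.94 and 1.07.

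**Figure D5:**
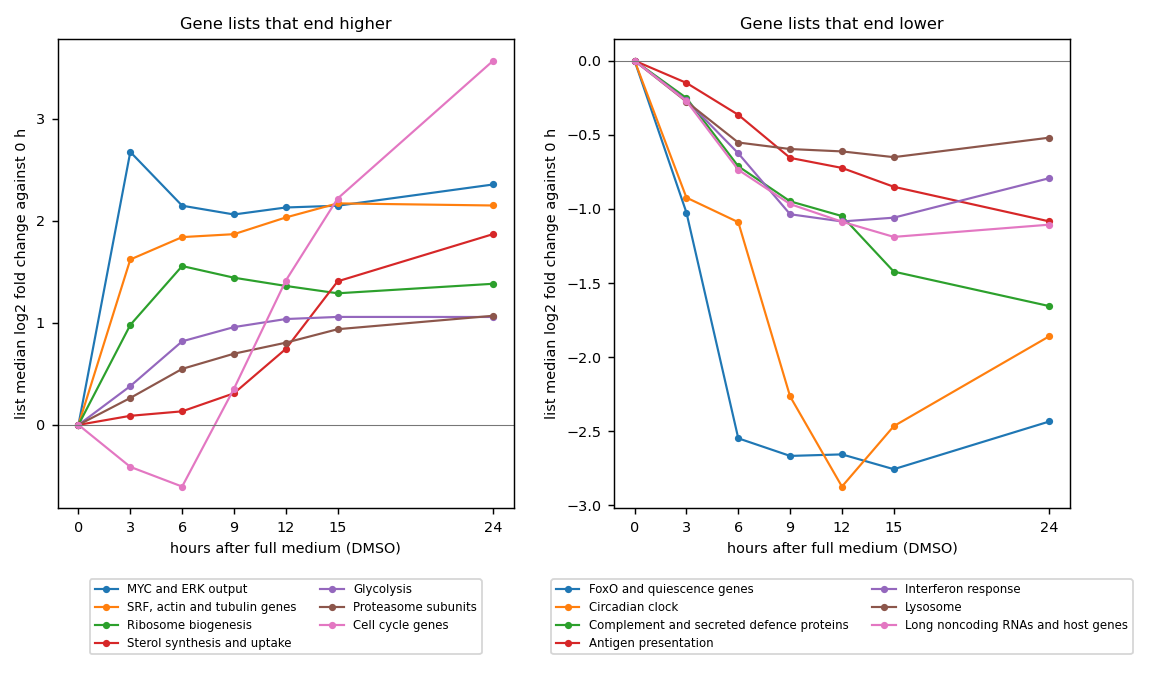
Median log2 fold change against 0 h (vertical axis) of lists that were higher (left) or lower (right) at 24 h, plotted by hours after full medium with DMSO. The FoxO list reached −2.55 at 6 h, while the sterol list was at 0.31 at 9 h and 1.87 at 24 h; all points share the 0 h libraries.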

How the data were processed

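The deposited files hold raw read counts per gene, 1 file a library. Per the file headers, the authors counted with featureCounts 1.5.1 on GENCODE 25 exons grouped by gene name, with no strand option and no multi-mapping reads. Per the labels' protocols, RNA went through a stranded polyA kit and was read as 75-base single ends. The submitters' processing notes name FastQC 0.11.3, TopHat2 2.1.1, Bowtie2 2.2.9, Subread 1.5.1 and GRCh38.p7.

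All 31 libraries (10342358 to 20878364 counts) were fitted together by group with edgeR 4.0.16 in R 4.3.3 (TMM, filterByExpr, glmQLFit, glmQLFTest), leaving 20 residual degrees of freedom. P-values were adjusted over all genes tested. CPM and FPKM used library totals multiplied by the TMM factors, and FPKM also used exon lengths in the files. Shares of counts held by lists used plain library totals. Groups came from the titles. Named genes were the 15 largest rises and falls outside the cell cycle list, for each list at most 4 rises and 4 falls with the smallest p, the 10 largest CPM gains and losses, and 12 chosen genes; other genes named without library values (such as LAMA3, NID1, DBP and HBP1) were picked from the lists after their values were seen. The largest rises and falls were taken from called genes with average log2 CPM of at least 1 and groups that did not overlap. Members and lists were chosen with earlier results of these data known. Sequences are RefSeq promoter windows of GRCh38.p14, and 10498 tested genes matched by symbol. On simulated counts, 66 of 67 genes changed 2-fold and 53 of 67 changed 1.5-fold were recovered, with 10 false calls. The simulation changed few genes, none of low counts, and gave every gene the same spread. Recovery in the real libraries may therefore be lower. Alternatives were DESeq2 1.42.0, RLE factors, library totals, no filter, the 5 libraries alone, an exon length correction, a replicate block and leaving out each library.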

Additional observations from a re-analysis of the deposited data

How the results depend on the processing

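Directions and calls of the 24 h DMSO against 0 h comparison held under most alternatives. Leaving out single libraries gave 5577 to 6185 genes higher, 4795 to 6020 lower, 2517 to 2945 higher by 2-fold or more and 2815 to 3529 lower by 2-fold or more. For palbociclib against DMSO the ranges were 479 to 664 higher, 1294 to 1719 lower, 30 to 217 higher by 2-fold or more and 471 to 504 lower by 2-fold or more; the cause was not tested. The list median of cell junction proteins changed sign with library totals (−0.015, against 0.10), and that scaling put the all-gene median at −0.21, against −0.095 as reported. Across alternatives 43.4% to 55% of calls were higher (48.6% as reported). Among values of named genes under an alternative, 4776 kept and 60 lost their call. Of list medians, 499 stayed within 0.1 or the spread between replicates, and 136 moved further or crossed 0 from a value near it. With the replicate number as a block, 12229 genes were called, 11872 of them shared with the 11945 reported. Only numbers 1 and 3 occur in both groups, and deviations from the group means correlated by 0.017 and −0.235. With 2 libraries at 24 h these deviations mirror each other, so whether a number marks a shared batch cannot be read from them, and the libraries were treated as sharing only a number. Across the series, libraries numbered 2 held 16631098 to 20878364 counts and those numbered 1 or 3 held 10342358 to 19390645. With 2 against 3 libraries, depth limits genes of a few counts per library, and floors cover counting error only.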

Other observations

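Gene families defined by name alone, which the report did not describe, also moved. Of 473 zinc finger genes tested (symbols starting with ZNF, ZFP, ZSCAN or ZKSCAN), 271 were lower and 76 higher at 24 h than at 0 h, with a median log2 fold change of −0.50. The 209 of them on chromosome 19 had 130 lower and 20 higher (median −0.64), and the 859 other genes tested on that chromosome had 370 lower and 266 higher (median −0.24). Of 78 mitochondrial ribosomal protein genes (MRPL and MRPS), 55 were higher, 18 of them by 2-fold or more, and 7 lower, with a median of 0.62, whereas cytosolic ribosomal proteins had a median of −0.26. Of 26 collagen genes, 15 were lower, 14 of them by 2-fold or more, and 9 higher. Of 20 snoRNA host genes named SNHG, 13 were lower and 3 higher, with a median of −1.0. All of these families were picked after their values had been seen.

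Primary cilium genes, whose organelle is built in quiescent cells, were 27 lower and 16 higher of 56 tested, with a median of −0.16 against −0.095 for all genes. The intraflagellar transport subunit IFT140 had 10.8 and 9.89 CPM at 24 h DMSO, against 42.6, 41.7 and 43.0 CPM at 0 h (−2.04 ± 0.10), and the Hedgehog receptor PTCH1 had 6.25 and 6.5 CPM against 25.5, 26.5 and 31.8 CPM (−2.13 ± 0.14).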
